A study of Mus musculus with 12 samples.

Results

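The population described here is a gated set of mammary gland fibroblasts that carried Tnc transcripts and few Postn, Fabp4 or Pi16 transcripts. Tnc codes for tenascin-C, Postn for periostin, Fabp4 for a fatty acid binding protein of the adipocyte lineage, and Pi16 for a peptidase inhibitor of the Dpp4+ fibroblasts. A cell counted as a fibroblast when Col1a1, Col1a2 and Col3a1 summed to at least 20 unique molecular identifiers (UMIs) and Ptprc, Pecam1 and Epcam were all at 0. It entered the population with at least 1 Tnc UMI, fewer than 60 Postn UMIs, fewer than 10 Fabp4 UMIs and fewer than 20 Pi16 UMIs. In all, 1240 of 33709 fibroblasts met these limits, which is 3.68% (exact 95% binomial interval 3.48 to 3.89%, counting error only, with libraries from 1.06 to 8.11%), out of 46257 cells that passed the quality limits and 58620 barcodes.

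The series profiled mammary glands of female C57BL/6J mice at 43 weeks of age by single-cell RNA sequencing of transcript 3′ ends in droplets, and each of 12 groups was 1 library. It asked how ovarian hormones and polybrominated diphenyl ethers (PBDEs), flame retardants found in the environment, act on the gland after ovarian failure. Intact mice were given no VCD and no added hormone. The mice of all other groups had received 160 mg/kg of VCD (4-vinylcyclohexene diepoxide) daily over 15 days, which depletes ovarian follicles. Of these, VCD_Vehicle had no hormone and a PBDE-free diet, and VCD_Vehicle_NormEnv had no hormone and possible exposure to PBDEs from plastic cages. VCD_E2 was given estradiol (E2, 1 µg per animal per day for 1 week), VCD_E2_P4 was given E2 with progesterone (P4, 1 mg per animal per day), and VCD_E2_ICI was given E2 and, once, 5 mg of ICI, an antagonist of estrogen receptors. VCD_Low_PBDE, VCD_Low_E2 and VCD_Low_E2_P4 had eaten low doses for 20 weeks (PBDE-47 at 0.05, PBDE-100 at 0.0028 and PBDE-153 at 0.0063 mg/kg per day). VCD_High_PBDE, VCD_High_PBDE_E2 and VCD_High_PBDE_E2_P4 had eaten high doses for 1 week (1, 0.056 and 0.126 mg/kg per day). The names with E2 or P4 mark the same hormone treatment at each PBDE level, and groups without a PBDE dose ate matched food with the solvent DMSO. Dose and duration of the PBDEs therefore cannot be told apart. Larger cells such as adipocytes, dead cells and lymph nodes were removed before sequencing, so shares of cells describe the suspension and not the gland.

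The libraries held between 41737881 and 109224969 UMIs. Cells of the population had a median of 10520.5 UMIs, against 16852 over all fibroblasts and 25145 in the Tnc fibroblasts above the Postn limit. VCD_Low_E2_P4 stood apart, with 10006 barcodes and a median of 3944.5 UMIs in its 134 cells of the population. Doublets were not called, and 19 cells of the population had a barcode string that another library also held. Because cells of 1 library are not replicates, counts were summed over the cells of each library and given as CPM, the gene's UMIs per 1000000 UMIs of that sum, with no correction for gene length.

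Tenascin-C and periostin are matricellular proteins. They sit in the extracellular matrix, change how cells attach and signal, and are known for appearing where connective tissue is growing, stretched or healing. Fibroblasts of the mammary gland lie around ducts, in the septa between lobules and among adipocytes, and supply growth factors, binding proteins and matrix to the epithelium. Ovarian hormones may act on these cells through receptors of their own, or indirectly through signals from the epithelium.

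Without added hormone, nearly all Tnc fibroblasts lay below the Postn limit, and with E2 many of them lay above it. The 5 libraries without added hormone were Intact, whose ovaries were not depleted, and the 4 given VCD and no hormone. The population made up 4.94% of fibroblasts in Intact, 8.11% in VCD_Vehicle, 4.13% in VCD_Vehicle_NormEnv, 4.91% in VCD_Low_PBDE and 2.62% in VCD_High_PBDE. It made up 3.47% in VCD_E2, 3.90% in VCD_Low_E2 and 1.72% in VCD_High_PBDE_E2, and 1.06%, 2.45% and 1.07% in the corresponding E2 + P4 libraries. VCD_E2_ICI had 5.04%, with 100 cells. Tnc fibroblasts on either side of the Postn limit made up 2.62 to 8.34% of fibroblasts without added hormone and 4.55 to 6.03% with E2 or E2 + P4, which overlapped. Of these cells, 95.7% lay below the limit in Intact, 97.1 to 100% in the 4 libraries given VCD and no hormone, and 97.1% in VCD_E2_ICI. The shares were 71.7%, 69.5% and 32.1% in the E2 libraries and 17.5%, 53.8% and 20.0% in the E2 + P4 libraries. Shares under a limit in UMIs also depend on the depth of the cells. With every cell thinned to 5000 UMIs and the limits lowered to 20 Postn, 4 Fabp4 and 7 Pi16 UMIs, the population made up 6.48% in VCD_Vehicle, 2.71% in VCD_E2, 1.16% in VCD_E2_P4 and 4.11% in VCD_E2_ICI, and 0.665% in VCD_Low_E2_P4. Of the thinned Tnc fibroblasts, 94.4 to 97.9% lay below the limit in the 5 libraries without added hormone and 95.2% in VCD_E2_ICI. In the same order of libraries, 74.2%, 78.2% and 33.8% lay below it with E2 and 28.4%, 28.1% and 12.2% with E2 + P4, so the value of VCD_Low_E2_P4 went from 53.8 to 28.1% on thinning.

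**Figure D1:**
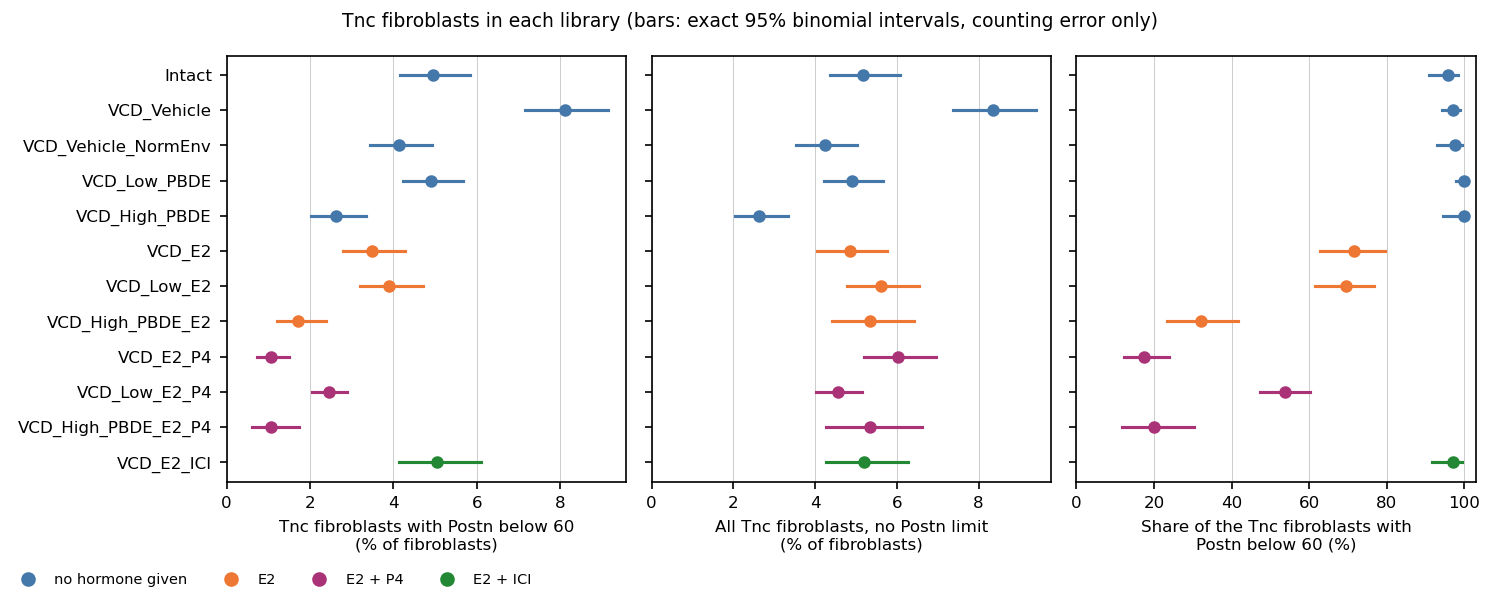
Each point is 1 library, with its exact 95% binomial interval (counting error only). The left panel gives the population as a percentage of fibroblasts. The middle panel gives the Tnc fibroblasts at any Postn, with the Fabp4 and Pi16 limits kept. The right panel gives the percentage of those below 60 Postn UMIs. It runs from 17.5 to 71.7% with E2 or E2 + P4 and from 95.7 to 100% without added hormone, Intact included.

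Low in Postn is a statement about UMIs per cell, not about level. In CPM, the population stood between 346 and 2203 for Postn, with a median of 1114, over the 11 libraries that held at least 20 of its cells. Fibroblasts without a Tnc UMI, and below the same Fabp4 and Pi16 limits, had a median of 551, and the Tnc fibroblasts above the limit 8880. Postn was at 0 in 340 cells of the population (27.4%). The cells were thus selected on their own UMIs of Tnc, Postn, Fabp4, Pi16 and the fibroblast and exclusion genes, and the values of these genes are given as a description. Cells on either side of a limit were alike in Penk and Enpp2 at the Postn limit and less so at the Tnc limit. The 58 Tnc fibroblasts with 50 to 59 Postn UMIs had 252 CPM of Penk and 595 of Enpp2, and the 35 with 60 to 69 had 226 and 515. The 406 cells with exactly 1 Tnc UMI had 289 CPM of Penk and 520.5 of Enpp2, and 12935 fibroblasts with no Tnc UMI that met the other limits had 112 and 229.6. There were 14 cells with 8 or 9 Fabp4 UMIs against 9 with 10 or 11, with 110 against 235 CPM of Penk and 420.1 against 678 of Enpp2, so these cells were not alike on both sides of the Fabp4 limit. There were 9 cells with 18 or 19 Pi16 UMIs against 7 with 20 or 21, with 128 against 102 CPM of Penk and 262 against 281 of Enpp2.

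Penk, Enpp2, Igfbp2 and Hgf were the named markers of the population beside Tnc. They were chosen in these data, so their levels in other fibroblasts are described without a test. Tests of their changes with hormone, given below, are not independent of this choice either, since 731 of the 1240 cells had no added hormone. Penk codes for proenkephalin, the precursor of opioid peptides (mm10, chr4:4133531-4138819). Enpp2 codes for autotaxin, which makes lysophosphatidic acid (chr15:54838901-54952892), Igfbp2 for an insulin-like growth factor binding protein (chr1:72824503-72852474), and Hgf for hepatocyte growth factor (chr5:16553495-16620152). Tnc itself lies at chr4:63959785-64047015. Over the libraries that held at least 20 cells of a set, Penk had a median of 451 CPM in the population, 119 in fibroblasts without Tnc, 49.1 in those with at least 10 Fabp4 UMIs and 23.1 in those with at least 20 Pi16 UMIs. For Enpp2 the same medians were 859, 282, 365 and 28.6 CPM, and for Igfbp2 they were 123, 10.5, 0.782 and 9.57 CPM. The Tnc fibroblasts above the Postn limit reached 20 cells only with E2, and 5 libraries held 20 cells of both Tnc sets. Their medians in the population and above the limit were 220.2 and 172 CPM for Penk, 447 and 488 for Enpp2, and 27.4 and 153 for Igfbp2. For Hgf they were 52.6 and 45.7. Penk was higher in the population in 5 of these 5 libraries, Enpp2 in 2, Igfbp2 in 1 and Hgf in 1. The Penk values were nearly equal in VCD_Low_E2 (276 against 270 CPM) and VCD_Low_E2_P4 (54.0 against 53.5). Its ranges over libraries overlapped (49.3 to 279 against 38.6 to 270). Enpp2, Igfbp2 and Hgf thus did not set the population apart from the Tnc fibroblasts above the limit.

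Pooled over libraries, Penk and Enpp2 were found in most cells of the population and Hgf and Igfbp2 in few, but Penk was found in a minority of the cells with E2 + P4. After thinning to 5000 UMIs, 70.4% of the cells had a Penk UMI and 86.1% an Enpp2 UMI, but 19.5% had Hgf and 11.7% Igfbp2 (77.5%, 88.6%, 30.2% and 13.5% unthinned). Penk was found in 4 of 28 thinned cells of VCD_E2_P4 and 12 of 50 of VCD_Low_E2_P4, and Enpp2 in 13 and 27 of these cells. Unthinned, Penk was found in 29.0%, 20.1% and 31.2% of the cells of the 3 E2 + P4 libraries, and the cells of VCD_Low_E2_P4 were shallow. In immune cells the thinned shares were 1.63%, 2.30%, 1.12% and 0.172%, and the median depth was 7552 UMIs. How much of this was background was not tested. Igfbp2 was found in 167 cells, and the 12 highest of them held 39.2% of its UMIs.

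Penk separated the hormone groups, Enpp2 and Igfbp2 did so with 1 overlapping library each, and Hgf did not. Penk stood at 471 CPM in Intact, 534 in VCD_Vehicle, 567 in VCD_Vehicle_NormEnv, 586 in VCD_Low_PBDE and 451 in VCD_High_PBDE. It stood at 220.2 in VCD_E2, 276 in VCD_Low_E2 and 279 in VCD_High_PBDE_E2, and at 49.3, 54.0 and 73.8 in the corresponding E2 + P4 libraries, the last of which held 16 cells. VCD_E2_ICI had 698 CPM, the highest value of the 12 libraries, and the libraries without added hormone, with E2 and with E2 + P4 did not overlap.

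Enpp2 ran in the same order with less distance. It stood at 605 CPM in Intact and between 945 and 1192 in the 4 libraries given VCD and no hormone, at 447, 510.2 and 859 in the E2 libraries, at 145, 301 and 398 in the E2 + P4 libraries and at 1105 in VCD_E2_ICI. VCD_High_PBDE_E2 lay above Intact, and below the libraries given VCD and no hormone.

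Igfbp2 had the widest range. It stood at 585 CPM in Intact and, with VCD and no hormone, at 404 in VCD_Vehicle, 338 in VCD_Low_PBDE and 505 in VCD_High_PBDE, but at 84.4 in VCD_Vehicle_NormEnv. With E2 it stood at 27.4, 32.4 and 123 CPM, with E2 + P4 at 6.16, 2.00 and 4.92 CPM, and in VCD_E2_ICI at 228. The highest cell held 21 of 43, 34 of 63 and 45 of 61 UMIs in the E2 libraries. It held 154 of 312 in VCD_High_PBDE, 52 of 124 in VCD_Vehicle_NormEnv and 114 of 268 in VCD_E2_ICI. In Intact, VCD_Vehicle and VCD_Low_PBDE it held 202 of 1014, 116 of 937 and 104 of 721. The overlap of VCD_High_PBDE_E2 with VCD_Vehicle_NormEnv thus rested on few cells. Hgf lay between 28.6 and 84.5 CPM without added hormone and between 52.6 and 67.0 with E2, which overlapped, and at 23.1, 24.0 and 59.0 with E2 + P4.

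**Figure D2:**
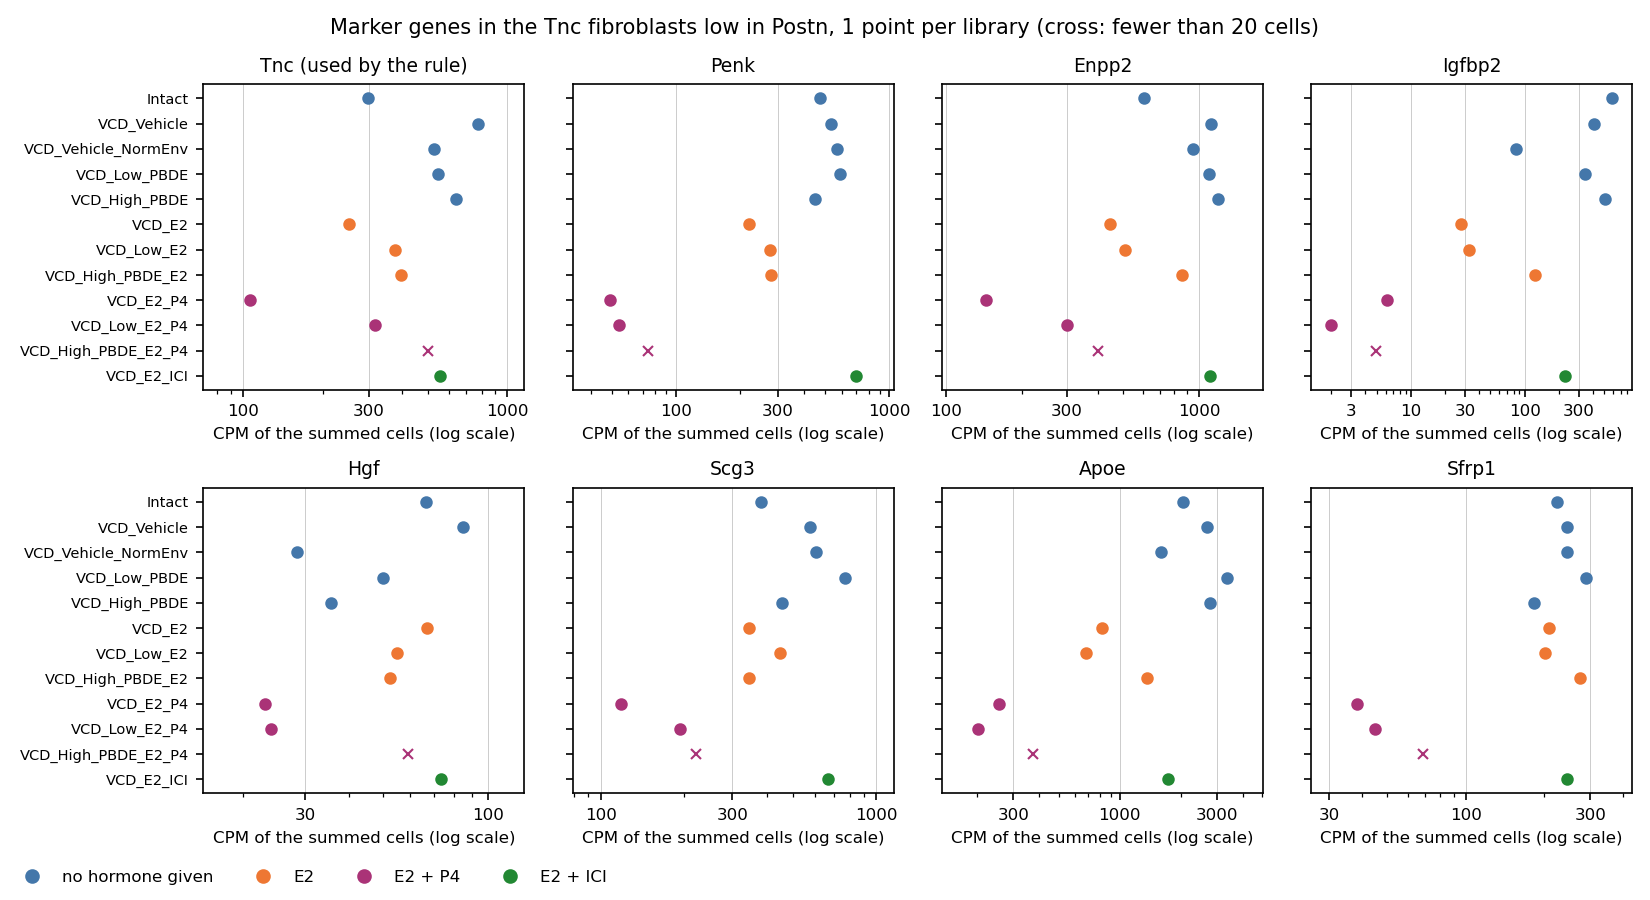
CPM of the summed cells of the population in each library, on a log axis, for Tnc (used by the rule), the 4 other markers, and Scg3, Apoe and Sfrp1. Points are coloured by hormone, and the cross is the library with 16 cells. Penk falls into separate ranges of 451 to 586 CPM without added hormone (Intact included), 220.2 to 279 with E2 and 49.3 to 73.8 with E2 + P4.

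Within the population, Enpp2 was higher in cells with at least 5 Tnc UMIs than in cells with 1 in 9 of the 10 libraries that held at least 10 cells of each, Intact being the exception. Penk and Igfbp2 were so in 7 of the 10, and counting intervals of the classes overlapped in some of these libraries. There were 406 cells with 1 Tnc UMI, 357 with 2 to 4 and 477 with 5 or more. Pooled over the 5 libraries without added hormone, Enpp2 stood at 695, 1052 and 1101 CPM in these cells, Igfbp2 at 75.9, 377 and 547, and Penk at 381, 600.5 and 583. With E2, Enpp2 stood at 426, 547 and 616 CPM, Igfbp2 at 8.62, 39.9 and 73.9, and Penk at 224, 293 and 262. With E2 + P4, Enpp2 stood at 181, 360 and 382 CPM and Penk at 64.3, 35.2 and 59.7, and Igfbp2 rested on at most 3 UMIs a class. These pooled classes hold different shares of libraries that differ in level, and the last one held 18 cells with E2 + P4, so no order with Tnc is read from them there. At each number of Tnc UMIs, Penk was highest without added hormone and lowest with E2 + P4. Gdf10, a BMP family ligand of another fibroblast population, ran the other way, from 100.5 CPM in cells without added hormone and 1 Tnc UMI to 22.5 in those with 5 or more.

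**Figure D3:**
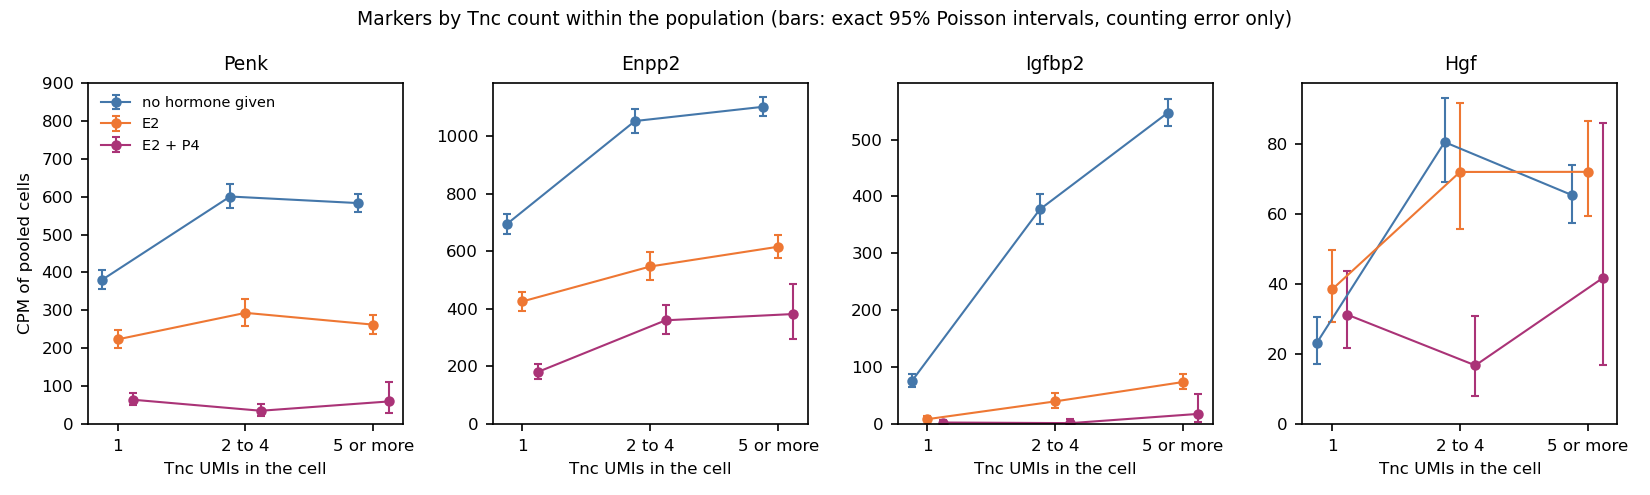
CPM of pooled cells by the number of Tnc UMIs in the cell, for the libraries without added hormone (Intact included), with E2 and with E2 + P4, with exact 95% Poisson intervals that cover counting error only. At 5 or more Tnc UMIs, Penk stands at 583, 262 and 59.7 CPM in these 3 groups.

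Without added hormone, cells rich in Igfbp2 differed from cells of the population in which it was at 0. This split was chosen after the values were seen and is described without a test. Among the cells of the 5 libraries without added hormone, 79 had at least 5 Igfbp2 UMIs, 20 of them in Intact, and 607 had 0, with medians of 11273 and 9893 UMIs. The Igfbp2-rich cells had 1044 CPM of Mfap4, a microfibril-associated glycoprotein, against 151 in the others, 124 against 3.50 of the proteoglycan gene Fmod, 678 against 111 of Cpxm2, 3738 against 716 of the calcification inhibitor Mgp, and 549.8 against 113 of Cilp, a cartilage intermediate layer protein. They had 30.3 against 375 CPM of Igfbp5, 12.5 against 129 of the activin antagonist Fst, and 126 against 519.9 of fibronectin (Fn1). Penk (397 against 541) and Enpp2 (536 against 1034) were lower in them, and Mdk, which codes for the growth factor midkine, was higher (589 against 287). Postn, a gene of the rule, stood at 1120 against 559 CPM.

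The population was compared with the mean of 3 other fibroblast sets (at least 20 Pi16 UMIs, at least 10 Fabp4 UMIs, and no Tnc). More genes were called higher than lower among Wnt and BMP inhibitors, IGF binding proteins and collagens. More were called lower than higher among steroid receptors and their targets, interferon-induced genes and the respiratory chain. These are counts of genes and not amounts of transcript. Without hormone, Igfbp5 had a median of 251 CPM in the population and 770 to 6398 in the 3 other sets. Col4a1 had 541 CPM, against 2434 in the Fabp4 set, 1547 without Tnc and 150 in the Pi16 set. The 3 other sets carried no Postn limit. The sets were gated on transcripts of the same cells, so these calls say how gated sets differed and are not independent of the gate. Of 13865 genes tested, 2725 were higher (19.7%) and 2958 lower (21.3%) at an adjusted p below 0.05 (edgeR's quasi-likelihood test with the library as a block, Benjamini-Hochberg adjustment), and the median log2 difference over all genes was -0.01. With DESeq2 3263 were higher and 2359 lower, so that 58.0% of the calls were higher in place of 48.0%, and the median was 0.04.

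Genes at 50 CPM or more with large differences above the other sets, the markers apart, included Crabp1, a retinoic acid binding protein (log2 difference 4.37 ± 0.27), Pla2g7, a phospholipase that degrades platelet activating factor (4.28 ± 0.26), Ifitm1 (3.69 ± 0.23), the carboxypeptidase-like gene Cpxm2 (3.61 ± 0.19), the Wnt pathway inhibitor Nkd2 (3.52 ± 0.16) and fibrillin 2 (Fbn2, 3.37 ± 0.24). Crabp1 had medians of 88.6 CPM in the population, 14.5 without Tnc, 4.91 in the Fabp4 set and 1.30 in the Pi16 set, and 167 in the Tnc fibroblasts above the Postn limit, all in libraries with E2. Thbs4 (4.19 ± 0.49) and Adamts8 (3.66 ± 0.75) were also called, but their UMIs sat in few cells. The 12 highest cells held 96.1% and 96.4% of them, and Adamts8 was not called without the 5% of cells with most UMIs (log2 1.20, adjusted p = 0.211). Below the other sets lay Mrgprg (-3.56 ± 0.61), Lurap1l (-2.43 ± 0.27), Krt19 (-2.40 ± 0.33), Itgb7, Efhd1, Aif1l, Pcsk6, Mustn1 and Krtdap, all of which were highest in the Pi16 set, and Olfm2, which was highest in the Fabp4 set. Lurap1l had a median of 2.72 CPM in the population and 111 in the Pi16 set.

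Ligands and their antagonists were called higher in larger shares than all genes (19.7%), and lower in shares near that of all genes (21.3%). Of 49 growth factors and ligands, 22 were higher and 14 lower, with a median log2 of 0.31. Inhba and Inhbb, which code for activin subunits, were higher by 2.88 ± 0.20 and 2.92 ± 0.21, and Wnt4, a ligand that in the mammary epithelium acts in branching, by 2.70 ± 0.21. Inhbb ran from 6.16 to 56.6 CPM in the population with a median of 36.4, against medians of 2.54 to 4.76 in the 3 other sets. Of 20 Wnt and BMP inhibitors, 13 were higher and 3 lower (median 0.98). Sfrp1, a secreted Wnt antagonist, was higher by 2.64 ± 0.15, with medians of 224 CPM against 18.1 to 44.9 in the 3 other sets, and Dkk3 by 1.62 ± 0.18. Fst (-1.32 ± 0.14) and Fstl1 (-0.81 ± 0.08) were lower. Of 12 IGF binding proteins and their proteases, 9 were higher and 3 lower (median 0.82). Pappa, a protease that frees IGF from its binding proteins, was higher by 3.20 ± 0.23, while Igfbp5 was lower (-1.82 ± 0.23).

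Among matrix genes, 17 of 33 collagens were higher and 4 lower (median 0.75). Col27a1 was higher by 1.71 ± 0.09 and Col13a1, a transmembrane collagen, by 3.77 ± 0.29. Of 44 matrix glycoproteins 20 were higher and 14 lower, with Mfap4 at 2.76 ± 0.29 and fibrillin 1 (Fbn1) at -1.12 ± 0.10. Of 20 proteoglycans 10 were higher and 5 lower, with lumican (Lum) at 0.68 ± 0.05 and Ogn at -1.35 ± 0.11. Of 35 matrix enzymes and inhibitors 12 were higher and 12 lower. The proteases Mmp16 (3.27 ± 0.22) and Mmp3 (1.68 ± 0.14) were higher and the inhibitors Timp3 (-1.52 ± 0.11) and Timp2 (-0.65 ± 0.05) lower. Of 41 genes of collagen folding and secretion 23 were higher and 4 lower, with a median log2 of 0.13.

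Interferon-induced genes were mostly lower, and chemokine and complement genes ran both ways. Of 37 interferon-induced genes 22 were lower and 1 higher (median -0.39), with Ifi27l2a at -1.24 ± 0.14. Of 24 chemokine and complement genes 9 were lower, among them C3 (-1.04 ± 0.16, not called in the 5 libraries that held both Tnc sets, adjusted p = 0.151) and Cd55 (-1.92 ± 0.13), and 6 higher, among them Cx3cl1 (2.87 ± 0.20) and Cxcl12 (0.86 ± 0.11). Of 76 nuclear genes of the respiratory chain 46 were lower and 2 higher, by small amounts (median -0.12, Sdhd -0.33 ± 0.04, Ndufs4 -0.26 ± 0.03), and in the 5 libraries that held at least 20 cells of both Tnc sets, all given E2, 5 were lower and 2 higher. With DESeq2 27 of the 76 were lower and 7 higher. Of 31 immediate early and heat shock genes 9 were higher and 9 lower, of 21 genes of cholesterol synthesis and uptake 7 were lower and 0 higher, and of 22 cell cycle genes 3 were higher and 0 lower. Genes that mark other fibroblasts, Anxa3 (-1.96 ± 0.15), Sema3c (-1.82 ± 0.19) and Dpp4 (-0.68 ± 0.11), were lower.

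The 5 tested genes of a list of steroid receptors and their targets, Greb1 among them, were all called lower in the population than in the other sets (median -1.15). Esr1, which codes for estrogen receptor alpha, lay between 7.96 and 31.3 CPM over libraries with a median of 21.0, against medians of 43.2 without Tnc, 44.3 in the Fabp4 set and 78.9 in the Pi16 set. The population's highest library (31.3) lay below the lowest of the Pi16 set (68.3). The log2 difference was -1.49 ± 0.16 (edgeR's quasi-likelihood test, adjusted p = 1.57e-10). Nr3c1, which codes for the glucocorticoid receptor, differed by -0.37 ± 0.05. Pgr, the progesterone receptor gene, had at most 7.71 CPM in a library and was called lower (-1.52 ± 0.56, adjusted p = 0.0272), a call lost without Intact, VCD_Vehicle or VCD_Low_E2 (adjusted p = 0.0531, 0.0599 and 0.0587). Greb1, an estrogen receptor target, was at most 21.1 CPM and differed by -1.15 ± 0.36. After thinning, 7.53% of the population had an Esr1 UMI, against 17.3% of fibroblasts without Tnc and 1.98% of immune cells. For Pgr these shares were 0.538%, 2.17% and 0.236%. In the Tnc fibroblasts above the Postn limit the shares were 5.22% for Esr1 and 0.803% for Pgr. Against that set, 1 of the 5 genes was called higher in the population and 0 lower (median 0.66). The low share of Esr1 was thus not particular to the population. Esr2 had 1 UMI in the whole population.

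Markers of endothelial cells, epithelial cells and adipocytes were low in the population. Those of immune cells, Schwann cells and nerve sheath fibroblasts had higher sums, though the lists differ in length. Pooled fibroblasts without Tnc had 82.6, 45.4 and 59.7 CPM for these 3 lists, above the population's medians over libraries given here. Over libraries, the 7 immune markers outside the rule summed to 21.0 to 418 CPM with a median of 33.0 and the highest value in VCD_Low_E2_P4, led by Cd74. Endothelial markers summed to 2.02 to 14.0 CPM, epithelial markers to at most 16.9, pericyte markers to 10.4 to 52.4 and skeletal muscle markers to at most 103. Of 6 adipocyte markers Plin1, Cidec and Lep were at 0 and the sum reached at most 8.99 CPM. The 6 Schwann cell markers summed to 14.8 to 169 CPM with a median of 39.3 and the highest value in VCD_Low_E2, and 4 of 6 were called higher than in the other sets (median 1.94). The 8 markers of nerve sheath fibroblasts summed to 28.1 to 61.6 CPM with a median of 56.1 and with Lypd2 at 0, and 3 were called higher and 1 lower. The part of such cells in the results was not tested, other than by leaving out each library and the 5% of cells with most UMIs.

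Against the Tnc fibroblasts above the Postn limit, more collagen, secretory pathway and contractile genes were called lower than higher in the population. More interferon-induced, chemokine and complement, and immediate early genes were called higher than lower. Elastin was lower and apolipoprotein E higher. The set above the limit reached 20 cells only in the 6 libraries given E2 without ICI, so that the block by library compared the 2 sets within a library in 5 of them. Of 13865 genes, 1949 were higher in the population (14.1%) and 1583 lower (11.4%), with a median log2 difference of 0.03. Fitted in those 5 libraries alone, 1005 genes were higher and 614 lower, and 1405 of 3506 calls that could be compared were made again in the same direction.

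Interferon-induced and complement genes were higher in the population than above the limit. Of 37 interferon-induced genes 34 were higher in the population and 0 lower (median 1.29), and 28 were higher within the 5 libraries. In these 5 libraries Ifitm3 lay between 1917 and 2699 CPM in the population and between 986 and 1991 above the limit, and was higher in the population in each of the 5. Bst2, an antiviral membrane protein, differed by 1.30 ± 0.19 and Oasl2 by 1.29 ± 0.19. Of 24 chemokine and complement genes 16 were higher and 0 lower (median 1.29), and 14 within the 5 libraries. C3, the central complement component, lay between 421 and 1137 CPM in the population and between 106 and 240.1 above the limit, which did not overlap, and differed by 1.97 ± 0.25. C4b differed by 2.36 ± 0.26 and the C1 inhibitor Serping1 by 1.21 ± 0.16. Beside these lists, 3 of 7 immune markers (median 1.38) and 5 of 6 Schwann cell markers (median 2.20) were higher in the population and 0 lower, as were 2 of 6 pericyte and smooth muscle markers (median 1.09), 1 of 5 endothelial markers (median 1.24) and 1 of 8 markers of nerve sheath fibroblasts (median 0.40), and the median depth of its cells was lower. Their part in the difference was not tested.

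Other genes higher in the population were Myoc (3.41 ± 0.55), Tmem176a (3.03 ± 0.30), Tmem176b (3.01 ± 0.29), Galnt15 (3.03 ± 0.41), Igfbp3 (2.82 ± 0.42), the Wnt antagonist Dkk2 (2.21 ± 0.35), Ifit1 (2.22 ± 0.40), Ly6c1 (2.14 ± 0.25) and the lipid carrier Apoe (2.20 ± 0.37). The 12 highest cells held 75.4% of the Myoc UMIs and 50.7% of those of Ifit1. In the 5 libraries that held both sets, Apoe had medians of 681 CPM in the population and 259 above the limit. That is a smaller difference than the fitted one. Among ligands, 19 of 49 were higher and 7 lower (median 0.73). Pdgfc (3.06 ± 0.43), the epithelial growth factor Fgf7 (1.60 ± 0.22) and Csf1 (0.78 ± 0.11) were higher and Bmp7 lower (-2.33 ± 0.56). Immediate early and heat shock genes were higher in 21 of 31 cases and lower in 0 (median 0.58), with Atf3 at 1.89 ± 0.17 and Socs3 at 1.45 ± 0.15. Dpp4 (1.47 ± 0.19), Gdf10 (1.82 ± 0.34) and Gas6 (1.99 ± 0.29), which mark other fibroblasts, were also higher. Each gene named in this comparison as higher was also called higher within the 5 libraries, and Gdf10 was not called at a limit of 2 Tnc UMIs (0.55, adjusted p = 0.306).

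Matrix and secretory genes ran the other way. Of 33 collagens 15 were lower in the population and 5 higher (median -0.53), and 12 and 1 within the 5 libraries. Col5a1 lay between 522 and 794 CPM in the population and between 876 and 1085 above the limit, and Col6a1 between 1658 and 2085 against 2117 and 2925, so that neither overlapped. Their log2 differences were -0.90 ± 0.13 and -0.70 ± 0.10. Col7a1, the anchoring fibril collagen, differed by -2.13 ± 0.31, Col5a2 by -0.93 ± 0.13 and Col15a1 by -0.87 ± 0.17. Elastin (Eln, -1.86 ± 0.28), the microfibril protein Mfap2 (-0.77 ± 0.11), Sparc (-0.97 ± 0.14), versican (Vcan, -1.09 ± 0.20) and the crosslinking enzymes Plod2 (-1.31 ± 0.17) and Loxl1 (-0.77 ± 0.12) were lower too. Of 41 genes of collagen folding and secretion 26 were lower and 2 higher (median -0.28), with Ssr3 at -0.65 ± 0.09, Fkbp10 at -0.62 ± 0.09 and the cargo receptor Lman1 at -0.55 ± 0.08. Of 12 contractile genes 6 were lower and 0 higher, with Tagln at -2.06 ± 0.40. Lrrc15, a marker of activated fibroblasts, lay between 52.4 and 89.4 CPM against 199 and 420.1 and differed by -1.38 ± 0.25. H19 (-1.88 ± 0.60), Nrep (-1.54 ± 0.26), Kcnk2 (-1.42 ± 0.34), Fam20a (-1.32 ± 0.17), Map1b (-1.32 ± 0.11) and Pcsk5 (-1.32 ± 0.16) were lower as well, and H19 was not called within the 5 libraries (adjusted p = 0.0928).

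**Figure D4:**
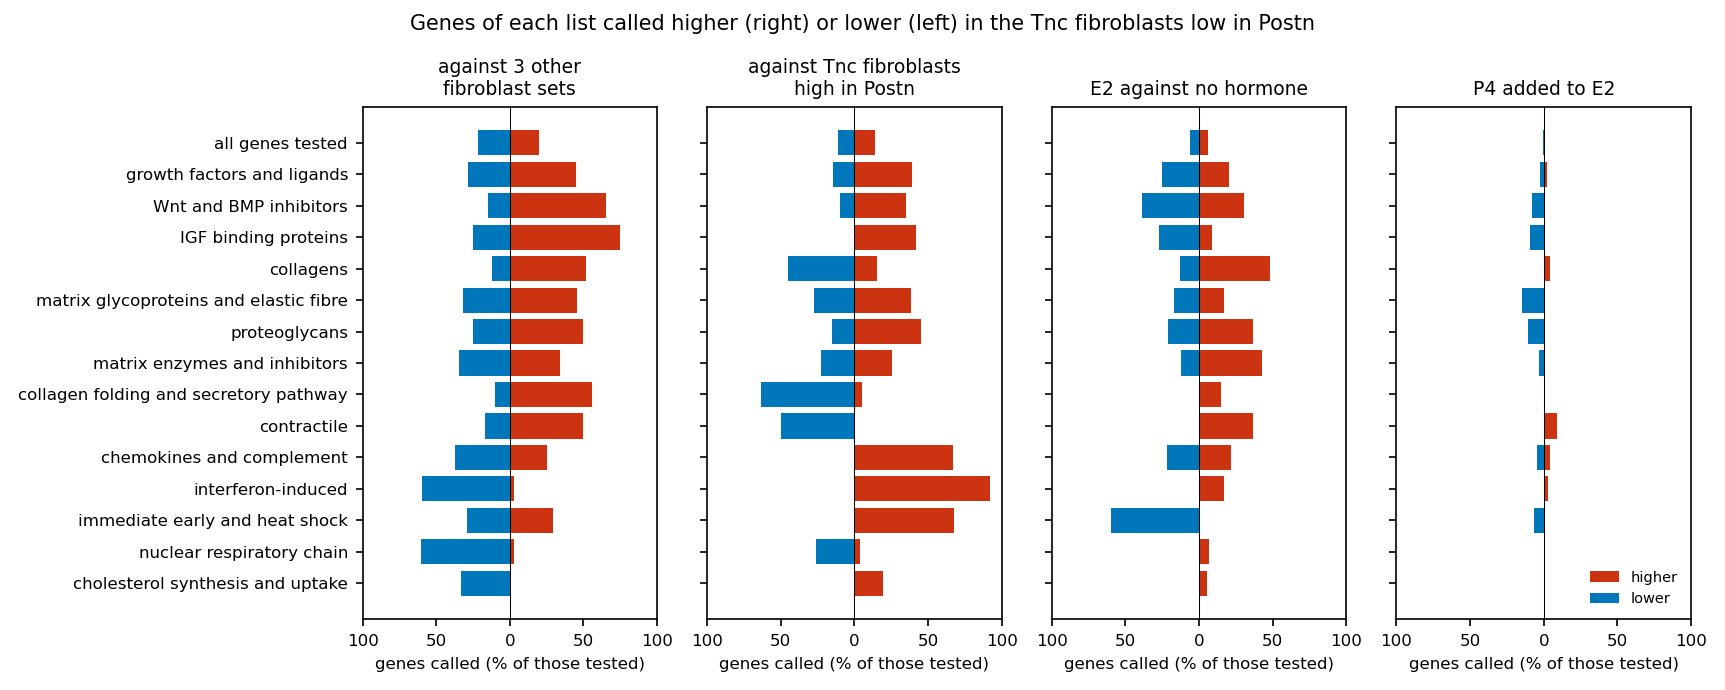
Percentage of the tested genes of each list called higher (to the right) or lower (to the left) in the population, for 4 comparisons, with all genes tested in the top row. Interferon-induced genes reach 34 of 37 higher against the Tnc fibroblasts above the Postn limit and 22 of 37 lower against the 3 other sets.

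Within the population, E2 went with lower Penk, Enpp2 and Igfbp2, lower immediate early genes and higher collagens, fibronectin and matrix enzymes. The test averaged E2 and E2 + P4 and set them against no hormone in 8 libraries of the layout of hormone and PBDE level, with hormone and PBDE level as additive terms, since each combination was 1 library. VCD_High_PBDE_E2_P4, with 16 cells, did not enter. Because a smaller share of Tnc fibroblasts lay below the Postn limit with E2, cells below it with and without E2 are differently selected, and values without a Postn limit are given where they changed a call or moved by over 1.5 times. In this bulk of summed cells, a change in the kinds of cells within the gate and a change per cell cannot be told apart. Of 9503 genes 558 were higher (5.87%) and 563 lower (5.92%), with a median log2 change of -0.01. Without VCD_Low_PBDE 346 genes were called in all, and without VCD_Vehicle 493. With the 3 E2 libraries alone against no hormone in the same fit, a setting chosen after seeing the data, 283 were higher and 188 lower. Of markers of other cell types, 1 of 4 for Schwann cells and 1 of 3 for nerve sheath fibroblasts were higher and 0 lower. None of 2 immune (median 1.25) and 4 pericyte and smooth muscle markers was called. The part of such cells in the changes was not tested.

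Penk, Enpp2 and Igfbp2 fell with E2, and the call of Hgf was lost with E2 alone. The log2 change was -2.29 ± 0.15 for Penk (adjusted p = 1.67e-05), -1.69 ± 0.19 for Enpp2, -4.85 ± 0.32 for Igfbp2 and -0.78 ± 0.19 for Hgf (edgeR's quasi-likelihood test). With E2 alone the changes were -1.09 for Penk (adjusted p = 0.00258), -1.04 for Enpp2, -3.16 for Igfbp2 and -0.06 for Hgf (adjusted p = 0.894). Hgf stood at 84.5, 50.1 and 35.6 CPM in the 3 libraries without hormone of this layout, at 67.0, 55.0 and 52.6 with E2 and at 23.1 and 24.0 with E2 + P4. Without a Postn limit the changes were -2.31, -1.68, -1.72 and -0.42. That of Hgf was then not called (adjusted p = 0.188), nor was it without VCD_Vehicle (adjusted p = 0.277), VCD_E2, VCD_E2_P4, VCD_Low_PBDE or VCD_Low_E2. Scg3 fell by 1.44 on the log2 scale and Apoe by 2.73. Apoe stood at 2689, 3349 and 2781 CPM without hormone, at 814, 681 and 1355 with E2 and at 256 and 201 with E2 + P4, without overlap. With the 2 codes in the deposited file names as a further term, the changes were -2.22 for Penk and -2.36 for Apoe. Intact, VCD_Vehicle, VCD_E2, VCD_E2_P4 and VCD_Low_PBDE share 1 code and the other 7 libraries share the other, and what the codes stand for is not given in the sources used here.

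Collagens and matrix enzymes rose more often than they fell, while matrix glycoproteins and proteoglycans ran both ways. Of 23 collagens 11 rose and 3 fell (median 0.84), without a Postn limit 18 of 26 rose and 3 fell, and with E2 alone 13 of 23 rose and 2 fell. Of 41 matrix glycoproteins 7 rose and 7 fell (median 0.07), and of 19 proteoglycans 7 rose and 4 fell (median -0.07). Without a Postn limit 18 of 42 glycoproteins rose and 13 fell, and 7 of 20 proteoglycans rose and 6 fell. Fn1 stood at 227, 595 and 176 CPM without hormone, at 1163, 1552 and 1953 with E2 and at 1602 and 2611 with E2 + P4, all above the libraries without hormone, and rose by 2.42 ± 0.28 (adjusted p = 0.000251). Col5a2 rose by 1.54 ± 0.13, the basement membrane collagens Col4a1 by 1.35 ± 0.13 and Col18a1 by 1.62 ± 0.16, while Col4a3 fell (-2.72 ± 0.39). Sparc (1.36 ± 0.12), Mfap2 (1.16 ± 0.14), Vcan (1.75 ± 0.25) and the cell surface proteoglycan gene Sdc1 (2.02 ± 0.18) rose. Fbln1 (-1.74 ± 0.13), Tgfbi (-2.30 ± 0.19), Gpc6 (-1.52 ± 0.13) and decorin (Dcn, -1.08 ± 0.12) fell. Dcn stood at 27275, 32259 and 27807 CPM without hormone, at 15702, 16305 and 21623 with E2 and at 11756 and 11387 with E2 + P4. Of 33 matrix enzymes and inhibitors 14 rose and 4 fell, and without a Postn limit 17 of 34 rose and 10 fell.

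Among enzymes and inhibitors, Timp1, an inhibitor of matrix proteases, stood at 93.2, 76.3 and 87.3 CPM without hormone and between 237 and 629.9 in the 5 libraries with E2, and rose by 2.10 ± 0.18. The crosslinking enzyme gene Loxl1 rose by 1.27 ± 0.15 and Adam12 by 1.75 ± 0.24. Of 13 Wnt and BMP inhibitors 4 rose and 5 fell, with E2 alone 1 rose and 2 fell, and without a Postn limit 2 rose and 5 fell. Fstl1 rose by 0.85 ± 0.14 and Nbl1 fell (-1.26 ± 0.20). Sfrp1 was called lower over E2 and E2 + P4 together (-1.40 ± 0.19) but not with E2 alone (-0.16, adjusted p = 0.699), and changed by -0.67 without a Postn limit. Of 11 IGF binding proteins 1 rose and 3 fell, with Igfbp3 at -2.36 ± 0.20, and without a Postn limit 1 rose and 6 fell, with Igfbp3 at -3.67. Of 40 ligands 8 rose and 10 fell, among them Pdgfc (-1.83 ± 0.27), and with E2 alone 5 rose and 3 fell. Of 41 ligands 7 rose and 14 fell without a Postn limit, and Pdgfc then changed by -3.18.

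Of 30 immediate early and heat shock genes 18 fell and 0 rose (median -0.60), without a Postn limit 23 fell, and with E2 alone 12 fell. Jun (-1.25 ± 0.12), Atf3 (-1.21 ± 0.13), Hspa1a (-1.44 ± 0.14) and Hspa1b (-1.24 ± 0.12) led the list, and with E2 alone the changes of Hspa1a and Hspa1b were -0.63 and -0.57. Jun changed by -1.90 and Atf3 by -2.43 without a Postn limit. Of 35 interferon-induced genes 6 rose and 0 fell, but without a Postn limit 2 rose and 14 fell, so the direction of this list depended on the limit. Of 23 chemokine and complement genes 5 rose and 5 fell, with Ccl8 (1.64 ± 0.22) and Cxcl16 (1.64 ± 0.24) up and Cxcl12 (-0.99 ± 0.15) down. Without a Postn limit 3 of 22 rose and 9 fell, Ccl8 changed by 1.05 and Cxcl16 was not called (0.54, adjusted p = 0.162). Of 76 respiratory chain genes 5 rose and 0 fell, of 41 genes of collagen folding and secretion 6 rose and 0 fell, and of 11 contractile genes 4 rose and 0 fell (1 and 1 with E2 alone). Without a Postn limit 23 of 76 respiratory chain genes, 28 of 41 folding and secretion genes and 8 of 11 contractile genes rose, and 1, 1 and 0 fell. Esr1 (0.83 ± 0.31, adjusted p = 0.103) was not called, and its change was 0.06 without a Postn limit.

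Among the genes with the largest changes, Ttyh2 (2.53 ± 0.21), Cthrc1 (2.36 ± 0.24), Sh3bgrl3 (1.97 ± 0.20) and Rgs2 (1.96 ± 0.27) rose, and Ifitm1 (-2.56 ± 0.23) and Nkd2 (-2.14 ± 0.24) fell, with changes of -1.63 and -1.23 for E2 alone. Cthrc1 changed by 3.63 and Nkd2 by -0.95 without a Postn limit. Others rested on few cells. Adamts8 (5.07 ± 0.69) was not called without VCD_Low_PBDE (0.76, adjusted p = 0.636), Cxcl9 (3.60 ± 0.41) had 757 of 949 UMIs in 1 cell and was not called with E2 alone (0.21, adjusted p = 0.859), and Myoc (3.92 ± 0.38) was not called with VCD_Vehicle_NormEnv added (2.13, adjusted p = 0.1) and changed by 2.55 without a Postn limit. The haemoglobin transcripts Hba-a1 (-3.24 ± 0.74), Hbb-bs (-3.14 ± 0.84) and Hba-a2 (-3.05 ± 0.73), which belong to red blood cells, had 97.6%, 95.8% and 97.7% of their UMIs in 12 cells. They were not called without VCD_Low_E2_P4 (adjusted p = 0.0718, 0.0602 and 0.0552) or with E2 alone (adjusted p = 0.0764, 0.104 and 0.0742), and without a Postn limit Hbb-bs and Hba-a2 were not called (adjusted p = 0.069 and 0.0625).

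Penk and Sfrp1, which codes for a secreted Wnt antagonist, were lower with P4 added to E2 than with E2 alone, and the calls of the other 3 markers each depended on single libraries. The test compared 2 libraries with 3. In 1 of the 2, VCD_Low_E2_P4, the cells had a median of 3944.5 UMIs and the immune markers summed to 418 CPM, against a median of 33.0 over libraries. Of the 2 immune markers tested, Cd74 was higher with P4 (2.38 ± 0.44, edgeR's quasi-likelihood test, adjusted p = 0.0267) and Lyz2 was not called (2.81 ± 0.66, adjusted p = 0.0883). Cells with exactly 1 Tnc UMI made up 71.0% in VCD_E2_P4 and 61.9% in VCD_Low_E2_P4, against 36.0%, 35.5% and 37.1% with E2. None of the 4 other markers was found in 19.4% and 44.0% of the cells, against 6.98%, 6.54% and 2.86%. A change in the kinds of cells within the gate and a change per cell cannot be told apart here. The part of immune transcripts and of depth in the changes with P4 was not tested, other than by leaving VCD_Low_E2_P4 out. Of 9503 genes 34 rose (0.358%) and 55 fell (0.579%), with a median log2 change of -0.01, and without VCD_Low_E2 24 genes were called in all and without VCD_Low_E2_P4 31. Penk fell by 2.38 on the log2 scale (SE 0.23, adjusted p = 0.000588), Enpp2 by 1.31, Igfbp2 by 3.37 and Hgf by 1.43. Igfbp2 changed by 0.50 without a Postn limit, and the calls of Enpp2, Igfbp2 and Hgf were each lost without 3 of the libraries (the largest adjusted p = 0.381, 0.337 and 0.284).

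Sfrp1 stood at 209, 201 and 273 CPM with E2 and at 38.5, 45.0 and 68.9 with E2 + P4, without overlap, and fell by 2.48 (SE 0.28, adjusted p = 0.00171). In the libraries without added hormone it lay between 183 and 289 CPM, which overlapped the E2 libraries. The heat shock gene Hspa1a fell by 1.61 on the log2 scale. Both Sfrp1 and Hspa1a were called under every alternative run. Scg3 (-1.46 ± 0.19), Apoe (-1.93 ± 0.27) and Hsd11b1, which codes for a glucocorticoid-activating enzyme (-2.10 ± 0.28), fell, and the calls of Apoe and Hsd11b1 were lost without VCD_Low_E2_P4 (-1.70 each, adjusted p = 0.0946 and 0.0743). Pla2g7 (-3.43 ± 0.36), Mark1 (-2.32 ± 0.29), Hmcn1 (-2.04 ± 0.24) and Sema5a (-2.01 ± 0.31) fell below the Postn limit but were not called without it (-0.58, -0.60, -0.30 and 0.07).

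Of 41 matrix glycoproteins 6 fell with P4 and 0 rose, of 19 proteoglycans 2 fell, among them Gpc6 (-1.35 ± 0.19), and of 23 collagens 1 rose, Col4a1 (0.77 ± 0.16). Of 24 genes called with P4 and run under the alternatives, 21 lost the call in at least 1 of them. Thbs4 (-4.72 ± 0.78) rested on few cells and changed by 0.17 with the smallest library kept. Of the risen genes, Scara5 (1.47 ± 0.24), tissue factor (F3, 1.51 ± 0.30), Anxa3 (0.90 ± 0.17), Gsn (0.81 ± 0.16), Hoxc10 (1.08 ± 0.23) and C1qtnf7 (1.98 ± 0.36) were not called without VCD_Low_E2, nor without VCD_Low_E2_P4 for all but F3 and Gsn. Cxcl9 rose by 6.77 ± 0.34, with most of its UMIs in 1 cell of VCD_Low_E2_P4, and was not called without a Postn limit (2.24, adjusted p = 0.11).

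PBDEs went with few calls in the population. For the low dose 5 of 9503 genes were higher (0.0526%) and 1 lower (0.0105%), and 311 passed an unadjusted p of 0.05 (edgeR's quasi-likelihood test). Cxcl9 (2.11 ± 0.28), Adamts8, Thbs4, Ctla2a and Ccdc3 were the higher ones. Their 12 highest cells held 81.8 to 96.4% of the UMIs, and Hist1h2ap, the lower one, had 97.4% of its UMIs in 12 cells. Without VCD_Low_E2, 0 genes were called (263 at an unadjusted p below 0.05), and none of Cxcl9, Ctla2a, Ccdc3 and Hist1h2ap was among them. For the high dose 0 genes were higher (0%) and 2 lower (0.021%), with 726 at an unadjusted p below 0.05. AY036118, a transcript of the ribosomal RNA locus, stood at 58.2 and 40.4 CPM in VCD_High_PBDE and VCD_High_PBDE_E2 and at 298, 250.2 and 208 without PBDE (-2.65 ± 0.32, adjusted p = 0.0145). It was also at 62.2 in VCD_E2_ICI and 136 in VCD_Vehicle_NormEnv, which had no PBDE diet. It was not called with the file name code as a term (adjusted p = 0.166), nor without VCD_High_PBDE_E2 (adjusted p = 0.142). All high-dose libraries carry the other file name code than the no-PBDE libraries of the layout, so the fit with the code rests on the low-dose libraries, which carry both. None of the 4 markers was called at either dose. Penk changed by 0.18 ± 0.17 at the low dose and by -0.01 ± 0.20 at the high dose, and Enpp2 by 0.33 ± 0.21 and 0.62 ± 0.24.

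Intact, VCD_Vehicle_NormEnv and VCD_E2_ICI could be set only beside single libraries, without a test. In VCD_E2_ICI, Penk, Enpp2, Fn1, Timp1, Apoe and Igfbp2 differed from VCD_E2 in the direction of VCD_Vehicle. Penk stood at 698 CPM (exact 95% Poisson interval 651 to 747, counting error only), against 220.2 in VCD_E2 (198 to 245) and 534 in VCD_Vehicle (505 to 565). Fn1 stood at 649 CPM in VCD_E2_ICI, 1163 in VCD_E2 and 227 in VCD_Vehicle, and Timp1 at 141, 308 and 93.2. Apoe stood at 1724, 814 and 2689 CPM, and Igfbp2 at 228, 27.4 and 404. The highest cell held 114 of the 268 Igfbp2 UMIs in VCD_E2_ICI, 21 of 43 in VCD_E2 and 116 of 937 in VCD_Vehicle. The Igfbp2 values of VCD_E2_ICI and VCD_E2 thus rested on few cells. VCD_E2_ICI and VCD_Vehicle_NormEnv carry the other file name code than VCD_Vehicle, VCD_E2 and Intact, so their differences from these libraries and the code cannot be told apart. The ICI library lay between the other pair for Fn1, Timp1, Apoe and Igfbp2 and above both for Penk.

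Intact mice, whose ovaries had not been depleted by VCD, lay between VCD_Vehicle and VCD_E2 for Penk and Enpp2 (471 and 605 CPM) and for Fn1 (609.9, with an interval of 574 to 648) and Timp1 (247), but above both for Igfbp2 (585, with an interval of 549.6 to 622, against 404 in VCD_Vehicle). VCD_Vehicle_NormEnv differed from VCD_Vehicle in Igfbp2 (84.4 against 404 CPM), Fn1 (535 against 227) and Apoe (1590 against 2689) beyond counting error, and little in Penk (567 against 534, with intervals of 529 to 606 and 505 to 565). With 1 library of each, the spread between mice is not known for these differences.

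The change with E2 was compared between the population and the 3 other fibroblast sets as an interaction. Only the population carried a Postn limit, and the Tnc fibroblasts above it did not enter. The part of this limit in the differences was not tested, other than by a fit without it. Of the 27 genes named for the interaction, 22 were called in the same direction in that fit, 3 lost the call and 2 changed sign. In the 5 libraries that held both Tnc sets, Igfbp2 had medians of 27.4 CPM in the population and 153 above the limit. It differed for 721 of 14317 genes upwards (5.04%) and 730 downwards (5.1%), with a median of -0.03, without VCD_Low_PBDE it differed for 374 in all, and with E2 alone for 478 upwards and 289 downwards. The log2 difference of the changes was -1.70 ± 0.26 for Penk, -0.97 ± 0.20 for Enpp2, -5.27 ± 0.69 for Igfbp2 and -0.82 ± 0.23 for Hgf. These markers were chosen in the same data, so their calls are not independent of that choice. With E2 alone, Igfbp2 was called (-3.65, adjusted p = 0.00177) and Penk (-0.82, adjusted p = 0.0575), Enpp2 (-0.28, adjusted p = 0.52) and Hgf (-0.06, adjusted p = 0.942) were not. The call of Enpp2 was also lost without VCD_Low_PBDE, that of Igfbp2 without VCD_E2_P4 or the 5% of cells with most UMIs, and that of Hgf without any 1 of 5 libraries.

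In medians over libraries without hormone and with E2 or E2 + P4, Penk went from 534 to 220.2 CPM in the population, from 133 to 73.8 without Tnc, from 30.2 to 18.8 in the Pi16 set and from 41.8 to 49.7 in the Fabp4 set. Medians with E2 or E2 + P4 cover 5 libraries in the population and 6 in the other sets. Igfbp2 went from 404 to 27.4 CPM in the population and from 17.1 to 4.70 in the Pi16 set. It was low throughout without Tnc (2.52 to 14.4) and in the Fabp4 set (0.329 to 1.65), and higher there with E2. Hgf went from 50.1 to 52.6 CPM in the population, from 18.4 to 26.4 without Tnc, from 15.0 to 29.8 in the Fabp4 set and from 12.5 to 5.94 in the Pi16 set, so its difference went with higher levels in 2 of the other sets. Apoe (-2.01 ± 0.27), Mdk (-1.82 ± 0.19), Dcn (-0.78 ± 0.08) and the stress-induced gene Ier3 (-1.34 ± 0.08) also had negative differences. Mdk went from 356 to 160 CPM in the population and from 105 to 163 in the Fabp4 set. Ier3 went from 568 to 1014 CPM without hormone to 167 to 413 with E2 in the population, without overlap, while its median went from 207 to 171 without Tnc.

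Several collagens rose more with E2 in the population than over the other sets, with 10 of 33 collagens higher and 3 lower in the interaction. Col6a3 had a median of 465 CPM without hormone (457 to 477) and 1379 with E2 (886 to 1737) in the population, 2269.6 and 2169 in the Fabp4 set, 1388 and 1227 without Tnc and 312 and 512 in the Pi16 set, and its interaction was 1.33 ± 0.13 (edgeR's quasi-likelihood test, adjusted p = 8.08e-06). Col4a1 (1.22 ± 0.12) and Col5a3 (1.49 ± 0.15) followed the same pattern. Without hormone the population had lower levels of these 3 collagens than the Fabp4 set and fibroblasts without Tnc. In medians with E2 the difference was smaller, except that Col6a3 was then higher in the population than without Tnc (1379 against 1227 CPM). Fn1 (1.35 ± 0.23) differed against the mean of the 3 sets, but its median went from 227 to 1602 CPM in the population and from 268 to 1843 in the Fabp4 set, while it went from 4330 to 3436 in the Pi16 set. Of 76 respiratory chain genes 14 were higher and 0 lower in the interaction (9 and 2 with E2 alone, 38 and 2 without a Postn limit), and of 31 immediate early and heat shock genes 0 were higher and 10 lower (0 and 4 with E2 alone, 0 and 20 without a Postn limit).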

How the data were processed

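Single-cell libraries of mouse mammary gland (10x Chromium 3′) had been aligned to mm10 and counted by the authors with Cell Ranger 3.1.0, per the labels, and the deposited values were UMI counts per gene and barcode, not normalized. Barcodes were kept from 500 genes and 1000 UMIs upwards, where mitochondrial genes held no more than 5% of the UMIs. Fibroblasts and sets were gated as given in the report, and doublets were not called. Counts were summed by library and set where at least 20 cells were present, and tested with edgeR 4.0.16 in R 4.3.3 (TMM scaling, its filter on low counts, quasi-likelihood F test, Benjamini-Hochberg adjustment, threshold 0.05). Fits between sets had the library as a block. Fits within the population had hormone and PBDE level as additive terms, and E2 was the mean of E2 and E2 + P4, with E2 without P4 as an alternative. The 10 genes of the gate were left out before adjustment. Each group was 1 library, and the labels do not give the number of animals in it, so p-values measure the spread between libraries under additivity. Single libraries were compared by exact 95% Poisson intervals, which cover counting error only. On simulated counts, 73.0% of 200 genes changed by 1 log2 unit were recovered between the Tnc sets, 76.0% against the 3 other sets, 58.0% for E2, 24.5% for P4, 51.5% for low PBDE, 21.0% for high PBDE and 40.5% for the interaction. In the same order, 9 of 155, 8 of 160, 14 of 130, 7 of 56, 6 of 109, 5 of 47 and 0 of 81 calls were false. The counts were drawn from the fitted models, so the assumptions of these, additivity among them, were not tested. The genes named were the markers, the estrogen and progesterone receptor genes and Greb1, for each test up to 10 in each direction with the largest log2 change among those past the threshold and at 50 CPM or more, and from each list up to 4 in each direction with the lowest adjusted p. The members, lists and tests were chosen with earlier results of these data known. Alternatives were DESeq2 1.42.0, no filter, other limits, fewer cells or libraries, and the code in the deposited file names. Some genes that this rule named are not reported here.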

Additional observations from a re-analysis of the deposited data

Results flagged for a closer look

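Of the 1451 genes whose change with E2 differed, 27 named ones are given here. A test of the difference itself (an interaction term in edgeR's quasi-likelihood fit, Benjamini-Hochberg adjustment) set the change with E2 in the population against that in the 3 other fibroblast sets. The 3 other sets carried no Postn limit. Values are log2 differences of the changes.

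For the markers the difference was -1.70 for Penk (adjusted p = 0.000376), -0.97 for Enpp2, -5.27 for Igfbp2 and -0.82 for Hgf. The markers were chosen in the same data, mostly from cells without added hormone, so these calls are not independent of that choice. The median of Hgf did not fall in the population (50.1 CPM without hormone and 52.6 with E2 or E2 + P4) and was higher with E2 in the Fabp4 set (15.0 and 29.8) and without Tnc (18.4 and 26.4). With E2 alone, without E2 + P4, Igfbp2 was called and Penk (adjusted p = 0.0575), Enpp2 and Hgf were not. Leaving out single libraries, the call of Penk was kept, that of Enpp2 was lost without VCD_Low_PBDE, that of Igfbp2 without VCD_E2_P4 and that of Hgf without any of 5 libraries (VCD_Vehicle, VCD_E2_P4, VCD_Low_PBDE, VCD_Low_E2 and VCD_Low_E2_P4).

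Other negative differences were -1.82 for Mdk, -2.01 for Apoe, -2.83 for Crabp1, -2.70 for Ifitm1, -2.63 for Mfap4, -2.57 for Pla2g7, -0.78 for Dcn and -1.34 for Ier3. In medians, Crabp1 went from 82.5 to 63.8 CPM in the population and from 4.83 to 18.7 without Tnc, and Mfap4 from 235 to 184 and from 30.1 to 129. Crabp1 was not called without VCD_Low_PBDE, and Pla2g7 was called neither without a Postn limit nor with E2 alone.

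Matrix genes ran both ways, with 7 of 45 glycoproteins higher and 12 lower, and 4 of 20 proteoglycans higher and 4 lower. Positive differences against the mean of the 3 other sets were 1.49 for Col5a3, 1.33 for Col6a3, 1.22 for Col4a1, 1.35 for Fn1, whose median rose as steeply in the Fabp4 set (268 to 1843 CPM) as in the population (227 to 1602), and 1.63 for the protease gene Adamts4, which was not called without VCD_Low_PBDE or VCD_Low_E2_P4. The difference was 1.90 for Igfbp5, which was not called without a Postn limit, 1.43 for Ppp1r14b, 1.27 for Ttyh2, which was not called without VCD_Vehicle, and 1.33 for Ptx3 and 1.31 for C3, both of which turned negative without a Postn limit, and of which Ptx3 was called neither with E2 alone nor without any 1 of VCD_E2_P4, VCD_Low_PBDE, VCD_Low_E2, VCD_High_PBDE and VCD_High_PBDE_E2. Myoc (4.27) had 75.4% of its UMIs in 12 cells. The haemoglobin transcripts Hbb-bt (-5.52), Hba-a1 (-5.48), Hbb-bs (-5.22) and Hba-a2 (-5.22) had 95.8 to 97.7% of theirs in 12 cells, and Hbb-bt was not called without VCD_Low_PBDE or VCD_Low_E2_P4 (adjusted p = 0.169 and 0.0996).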

How the results depend on the processing

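Comparisons with P4 and PBDEs rested on 2 or 3 libraries an arm and moved most. The cause was not tested for any of these changes, and numbers below are genes called unless stated.

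The comparison with the Tnc fibroblasts above the Postn limit gave 3532, and 1619 in the 5 libraries that held both sets, where 62.1% were higher in place of 55.2%. That with the 3 other sets gave 5683 (48.0% higher, 58.0% with DESeq2), 2406 with exactly 1 Tnc UMI, and 2546 in those 5 libraries. Leaving out each library gave 2712 to 3510 and 5123 to 5710.

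E2 gave 1121, 505 with DESeq2, 1882 with the Postn limit as a share of UMIs, 3013 without the limit, 420 with the file name code as a term, 300 with exactly 1 Tnc UMI and 471 with E2 alone, where 60.1% were higher in place of 49.8%. Leaving out each library gave 346 to 1460. The number fell more than 1.5 times without VCD_Low_PBDE, VCD_Vehicle (493), VCD_Low_E2_P4 (561), VCD_Low_E2 (606) or VCD_E2 (733). The interaction gave 1451, 2250 with the limit as a share, 2931 without the limit, 767 with E2 alone (62.3% higher in place of 49.7%), and 374 to 1561 on leaving out each library. It fell most without VCD_Low_PBDE (36.9% higher in place of 49.7%), VCD_Vehicle (598), VCD_Low_E2_P4 (630) and VCD_E2_P4 (955).

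P4 gave 89, 370 without the filter on low counts, 173 with at least 2 Tnc UMIs, 51 with the limit as a share, 292 without the limit, 49 with VCD_Vehicle_NormEnv added, 145 with the file name code and 43 with exactly 1 Tnc UMI. Leaving out each library gave 24 (VCD_Low_E2) to 133, with 31 without VCD_Low_E2_P4 and 54 without VCD_E2.

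Low PBDE gave 6, 2 with DESeq2, 62 without the filter, 3 with negative selection on 6 genes and 23 with exactly 1 Tnc UMI. It gave 0 with edgeR with the limit as a share, without the limit, with VCD_Vehicle_NormEnv added and with the file name code (335, 337, 318 and 302 at an unadjusted p below 0.05), and 0 to 16 on leaving out each library, 0 being without VCD_Low_E2. High PBDE gave 2, 10 with DESeq2, 103 without the filter, 14 with at least 2 Tnc UMIs, 6 without the 5% of cells with most UMIs, and 1 each without the limit, with VCD_Vehicle_NormEnv added, with the file name code and with exactly 1 Tnc UMI. Leaving out each library gave 1 to 37, with 37 without VCD_High_PBDE.

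The population's share of fibroblasts was 3.68%, 2.77% after thinning, 3.08% below 30 Postn UMIs, 4.12% below 120, and 2.47% with at least 2 Tnc UMIs.

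Log2 values that changed sign were Igfbp2 against the Tnc fibroblasts above the limit (0.29 with at least 2 Tnc UMIs). For E2, with exactly 1 Tnc UMI, they were Hgf (0.10), Hba-a1 (6.74), Hbb-bs (5.37) and Hba-a2 (4.87), and, with VCD_Vehicle_NormEnv added, Adamts8 (-0.31). For P4 they were Igfbp2 (0.16 with the limit as a share, 0.50 without it), C1qtnf7 (-0.058 with exactly 1 Tnc UMI), and without the limit Scara5 (-0.25), Gsn (-0.57), Thbs4 (0.30) and Sema5a (0.068), with Thbs4 also at 0.17 when smaller sums were kept. For low PBDE they were Adamts8 (-0.14) and Hist1h2ap (1.04) with the file name code and Ctla2a (-0.045) without the limit, and for the interaction Ptx3 (-0.18) and C3 (-0.19) without the limit. The settings with exactly 1 Tnc UMI, smaller sums, the 5 libraries and E2 alone were chosen after seeing the data.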
